A study of Homo sapiens with 4 samples.

Results

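The genes examined were 10 enzymes of glycolysis and lactate formation, namely HK1, HK2, GPI, PFKP, ALDOA, GAPDH, PGK1, ENO1, PKM and LDHA, chosen by gene symbol from a table of 27800 symbols, and all 10 were found in it. They were measured in MOLM-13, an established human cell line of acute myeloid leukaemia with an MLL-AF9 (KMT2A-MLLT3) fusion. RNA was sequenced from 2 sgKAT6A libraries, from cells transduced with a lentivirus carrying CRISPR-Cas9 and a guide against KAT6A, and from 2 EV libraries, from cells given the corresponding vector labelled EV. Both groups therefore shared the cell line, the fusion and the viral CRISPR-Cas9 delivery, and the series set out to test what KAT6A loss does to the leukaemic expression program. The number of guides, the time of harvest and whether edited cells were a pool or a clone are not given in the sources read for this work. Nothing states that replicates came from separate cultures, so p-values cover only the spread among these libraries, which may be technical.

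Glycolysis splits glucose into pyruvate in the cytosol and yields ATP and NADH, and lactate dehydrogenase turns pyruvate into lactate while restoring NAD+. Hexokinase and phosphofructokinase commit glucose to the pathway, and the later steps from GAPDH onwards recover energy. Many of these genes are known targets of the hypoxia factor HIF-1 and of MYC, and leukaemic blasts are known for high aerobic glycolysis. In RNA from bulk cells, a smaller number of cells expressing a gene and less RNA per cell cannot be told apart.

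Expression was available as TPM, a share of each library that is corrected for transcript length, so levels of different genes can be set side by side. TPM keeps no read depth, so the depth behind each value was unknown. KAT6A itself was at 12.2 and 10.8 TPM with sgKAT6A and 16.2 and 16.7 TPM with EV, with no overlap of the groups. Its log2(TPM + 1) difference, sgKAT6A minus EV, was -0.48 ± 0.13 (SE) and did not pass (limma adjusted p = 0.784). Of the 12603 genes tested, 23.2% were separated downwards in the same way. The share of TPM in protein-coding genes was 77.9% and 78.2% with sgKAT6A and 81.2% and 81.7% with EV, a gap that rescaling to protein-coding genes removes. The 18S ribosomal RNA symbol was at 12031 and 340 TPM with sgKAT6A (replicates 1 and 2) and 10401 and 13751 TPM with EV, so sgKAT6A replicate 2 stood apart for that symbol. Over all ribosomal RNA symbols the share of TPM was 3.80% and 2.35% with sgKAT6A and 2.26% and 3.82% with EV, and by this measure it did not. All 9 myeloid marker genes, among them CD33, MPO and LYZ, were at 1 TPM or more in every library. The monocytic markers among them were higher in replicate 2 of each group: CD14 was at 3.04 and 54.3 TPM with sgKAT6A and 1.08 and 29.3 TPM with EV, and ITGAM at 12.3 and 52.1 TPM with sgKAT6A and 3.74 and 21.5 TPM with EV. Markers of T cells, B cells, epithelium and fibroblasts summed to between 0.346 and 13.1 TPM per list and library. The erythroid list summed to 388 and 243 TPM with sgKAT6A and 145 and 406 TPM with EV, nearly all of it globin transcripts. Its part in the results was not tested.

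Promoter windows are shown for LDHA, PGK1 and GPI, the members whose sgKAT6A libraries both lay below both EV libraries in the deposited values, and for HK2, whose difference between the groups was the most positive. Each window covers 250 bases before and 50 after a transcription start in RefSeq on GRCh38.p14, reads 5′ to 3′ on the plus strand, which is the coding strand of all of these genes, and has capitals where ACGTG, the core of the HIF-1 binding motif, occurs on either strand. A CACGTG, the E-box bound by MYC with MAX, contains ACGTG on both strands and counts as 2 matches to it.
LDHA, chr11:18394313-18394612: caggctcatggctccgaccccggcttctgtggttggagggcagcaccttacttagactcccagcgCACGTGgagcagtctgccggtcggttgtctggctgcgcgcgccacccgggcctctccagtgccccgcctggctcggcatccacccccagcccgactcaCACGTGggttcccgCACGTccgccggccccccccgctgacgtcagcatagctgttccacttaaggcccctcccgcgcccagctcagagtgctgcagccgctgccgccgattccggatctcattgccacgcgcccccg
PGK1, chrX:78103998-78104297: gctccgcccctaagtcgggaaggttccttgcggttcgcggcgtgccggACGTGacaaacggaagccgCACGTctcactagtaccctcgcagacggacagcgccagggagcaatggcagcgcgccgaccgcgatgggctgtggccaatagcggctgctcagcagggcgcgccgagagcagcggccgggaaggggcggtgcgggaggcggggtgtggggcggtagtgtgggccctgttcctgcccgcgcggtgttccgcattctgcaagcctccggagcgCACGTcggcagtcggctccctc
GPI, chr19:34364742-34365041: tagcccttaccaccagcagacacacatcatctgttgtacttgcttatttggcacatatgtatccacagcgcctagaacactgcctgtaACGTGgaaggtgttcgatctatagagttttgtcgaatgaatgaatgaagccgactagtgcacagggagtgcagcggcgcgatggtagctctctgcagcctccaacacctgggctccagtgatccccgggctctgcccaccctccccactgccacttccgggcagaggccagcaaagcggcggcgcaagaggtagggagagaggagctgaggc
HK2, chr2:74833877-74834176: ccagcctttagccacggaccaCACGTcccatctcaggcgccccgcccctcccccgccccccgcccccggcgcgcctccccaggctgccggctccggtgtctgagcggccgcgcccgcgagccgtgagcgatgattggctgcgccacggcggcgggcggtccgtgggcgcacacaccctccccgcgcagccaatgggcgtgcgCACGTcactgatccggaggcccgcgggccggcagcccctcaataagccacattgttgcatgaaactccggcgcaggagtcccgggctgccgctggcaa
HK2, second start, chr2:74834920-74835219: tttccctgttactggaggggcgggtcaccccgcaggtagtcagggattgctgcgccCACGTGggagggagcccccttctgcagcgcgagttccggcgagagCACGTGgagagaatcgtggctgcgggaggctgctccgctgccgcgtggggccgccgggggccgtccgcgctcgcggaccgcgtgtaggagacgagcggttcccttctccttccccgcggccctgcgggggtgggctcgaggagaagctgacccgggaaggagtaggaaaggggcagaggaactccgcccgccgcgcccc

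The LDHA window shown held 5 matches to ACGTG, counted over both strands, and 2 copies of CACGTG, while the window of a second LDHA start, which is not shown, held 0 of either. The PGK1 window held 3 matches to ACGTG and no CACGTG, and the GPI window held 1 match. Of the HK2 windows, the first held 2 matches and no CACGTG, and the second held 4 matches that made up 2 copies of CACGTG. Over all 23 RefSeq windows of the 10 genes, ACGTG was present in 10 and CACGTG in 4. Among all 35116 windows of that length, ACGTG was present in 21.4% and CACGTG in 7.26%. By gene, 7 of the 10 had ACGTG in at least 1 window, against 24.9% of 27305 genes. Several of the 10 genes have many annotated starts, which raises such a count, and a match of letters does not show that a factor binds there. The windows of GPI, PFKP, GAPDH and PKM lie inside the gene spans given below, so the outermost 5′ end of these genes was not covered.

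The 10 transcripts spanned about 2 orders of magnitude, and their order was the same in both groups. By mean TPM, from high to low, it was GAPDH, ENO1, ALDOA, PKM, LDHA, PGK1, GPI, PFKP, HK1 and HK2. The groups' library values kept all neighbours in that order apart except for HK1 and HK2, which overlapped in both groups, and LDHA and PGK1, which overlapped in sgKAT6A. HK1 exceeded HK2 in all 4 libraries, and LDHA exceeded PGK1 in 3 of 4. The 10 genes summed to 7491 and 6893 TPM with sgKAT6A and 7680 and 7205 TPM with EV. The ratio of the group means was 0.966, and 1.01 with protein-coding genes only, and the groups overlapped. EV replicate 1 held the highest value of the 4 libraries for 6 of the 10 genes (GPI, PFKP, GAPDH, PGK1, ENO1 and LDHA), beside 26.1% of all genes tested, a count made after the values were seen.

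**Figure D1:**
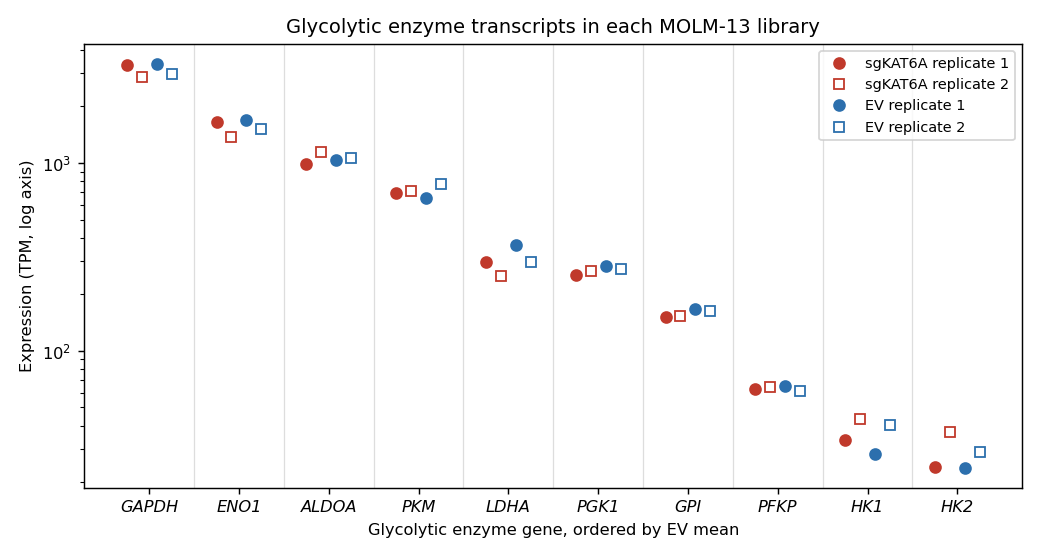
TPM on a log axis for each of the 10 glycolytic enzyme genes in the sgKAT6A libraries (red) and the EV libraries (blue), replicate 1 as filled circles and replicate 2 as open squares, ordered by EV mean. Levels run from GAPDH, at 2857 to 3355 TPM, down to HK2, at 23.9 to 36.9 TPM, and the points of a gene lie close together compared with the distance between most genes.

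No glycolytic enzyme passed the test of sgKAT6A against EV across all genes. Of the 12603 genes whose mean reached 1 TPM, all 10 enzymes among them, limma called 0 (0%) at an adjusted p under 0.05, and 459 (3.64%) had an unadjusted p under 0.05. None of the 10 was among those 459. The adjusted p-values of the 10 ran from 0.784 for LDHA to 0.989 for PFKP by limma with Benjamini-Hochberg adjustment. An exact two-sided permutation test of 2 against 2 libraries cannot give a p below 0.333, so only the fit across all genes was used. The median log2 difference of the 10, sgKAT6A minus EV on the log2(TPM + 1) scale, was -0.03, beside -0.02 over all genes tested. That median was 0.0021 with median-of-ratios scaling, 0.049 with quantile normalization and 0.032 with protein-coding genes only, so it had no fixed sign. The median size of the difference regardless of sign was 0.093 for the 10 and 0.188 for all genes tested. The 10 genes are abundant, with a median of 286 TPM against 12.5 TPM for all genes tested, and these medians were not compared at matched levels.

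Hexokinases phosphorylate glucose as it enters the cell, and HK1 (chromosome 10, 69270000 to 69401882) and HK2 (chromosome 2, 74834127 to 74893359) are the isozymes that bind the outer mitochondrial membrane. HK1 was at 33.7 and 43.4 TPM with sgKAT6A (replicates 1 and 2) and 28.3 and 40.5 TPM with EV (replicates 1 and 2). HK2 was at 24.0 and 36.9 TPM with sgKAT6A and 23.9 and 28.9 TPM with EV, in the same order of replicates. For each gene the replicate 2 library was the higher of its group, and the groups overlapped. The log2 difference was 0.17 ± 0.24 (SE) for HK1 and 0.17 ± 0.26 (SE) for HK2, the widest errors among the 10. Neither direction held in every subset of libraries: HK1 was at -0.01 without sgKAT6A replicate 2 and -0.08 without EV replicate 1, and HK2 at -0.13 without sgKAT6A replicate 2. The ratio of HK2 to HK1 within a library was 0.713 and 0.850 in sgKAT6A and 0.846 and 0.713 in EV, with nearly the same mean in each group. HK3, the hexokinase typical of myeloid cells, was at 3.57 and 14.0 TPM with sgKAT6A and 1.74 and 5.19 TPM with EV, so it was the least abundant of these 3 hexokinases in every library.

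GPI and PFKP act next, GPI turning glucose 6-phosphate into fructose 6-phosphate and PFKP, the platelet-type phosphofructokinase, making fructose 1,6-bisphosphate. GPI (chromosome 19, 34359718 to 34402413) was at 152 and 154 TPM with sgKAT6A and 167 and 163 TPM with EV. Its groups did not overlap, and its ratio of means was 0.922 with a log2 difference of -0.12 ± 0.10 (SE, limma adjusted p = 0.792). PFKP (chromosome 10, 3067548 to 3136805) was at 62.4 and 64.4 TPM with sgKAT6A and 64.9 and 61.4 TPM with EV. It had the smallest range of the 10 over the 4 libraries, 0.078 on the log2 scale, and a ratio of means of 1.00. PFKL, the liver-type subunit, was more abundant than PFKP in every library, by 1.80 and 1.83 times in sgKAT6A and 1.68 and 2.00 times in EV.

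ALDOA, the aldolase that cleaves fructose 1,6-bisphosphate, lies on chromosome 16 (30064279 to 30070420). It was at 993 and 1140 TPM with sgKAT6A and 1036 and 1063 TPM with EV, so the sgKAT6A libraries held both the lowest and the highest value. TPI1, the isomerase that follows and is not among the 10, was at 470 and 469 TPM with sgKAT6A and 541 and 499 TPM with EV, with no overlap (log2 difference -0.15 ± 0.11 (SE), limma adjusted p = 0.784, and -0.09 without EV replicate 1). ALDOC, the aldolase best known from brain, was at 7.29 and 23.2 TPM with sgKAT6A and 6.32 and 5.34 TPM with EV. The log2 difference of ALDOC, 1.06 ± 0.57 (SE), did not pass (limma adjusted p = 0.784) and its excess came mainly from sgKAT6A replicate 2. Even there ALDOC stood at 0.0204 of the ALDOA level.

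GAPDH, PGK1 and ENO1 act in the later part of the pathway, oxidising glyceraldehyde 3-phosphate, forming the first ATP and making phosphoenolpyruvate. GAPDH (chromosome 12, 6534517 to 6538371) was at 3327 and 2857 TPM with sgKAT6A and 3355 and 2989 TPM with EV. ENO1 (chromosome 1, 8861000 to 8878686) was at 1657 and 1371 TPM with sgKAT6A and 1702 and 1517 TPM with EV. In both genes the replicate 2 library was the lower of its group, the reverse of the hexokinases, and the groups overlapped. The gap between replicate 2 and replicate 1 was -0.22 in sgKAT6A and -0.17 in EV for GAPDH, and -0.27 in sgKAT6A and -0.17 in EV for ENO1, on the log2 scale. These gaps exceeded the group differences of -0.04 for GAPDH and -0.09 for ENO1. PGK1 (chromosome X, 78104248 to 78129295) was at 254 and 267 TPM with sgKAT6A and 281 and 274 TPM with EV, without overlap, at a ratio of 0.938 (limma adjusted p = 0.818). PGAM1, the mutase between PGK1 and ENO1, was also without overlap, at 422 and 412 TPM with sgKAT6A and 466 and 466 TPM with EV (log2 difference -0.16 ± 0.10 (SE), limma adjusted p = 0.784).

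PKM and LDHA end the pathway, the first making pyruvate and the second reducing it to lactate. PKM (chromosome 15, 72199029 to 72231591) was at 691 and 709 TPM with sgKAT6A and 654 and 770 TPM with EV, so the EV libraries enclosed the sgKAT6A values. The table gives 1 value per gene, so the splice forms of PKM were not separated. LDHA (chromosome 11, 18394563 to 18408425) was at 296.54 and 250.6 TPM with sgKAT6A and 366.6 and 296.96 TPM with EV. The groups did not overlap, but sgKAT6A replicate 1 and EV replicate 2 were almost equal. Replicate 2 was the lower of each group, as for GAPDH and ENO1. The log2 gap between replicate 2 and replicate 1 of LDHA was -0.24 in sgKAT6A and -0.30 in EV, about as large as its group difference. LDHA had the largest difference of the 10 in size, -0.27 ± 0.17 (SE), with an unadjusted p of 0.182 and an adjusted p of 0.784 by limma. Its ratio of means was 0.825, and its 95% interval ran from 0.596 to 1.15 as a fold on the TPM + 1 scale. LDHB, the isozyme subunit that favours the reverse reaction, was at 687 and 504 TPM with sgKAT6A and 833 and 730 TPM with EV (log2 difference -0.41 ± 0.20 (SE), limma adjusted p = 0.784). Leaving out a single library moved the LDHB difference to between -0.63 (sgKAT6A replicate 1 left out) and -0.18 (sgKAT6A replicate 2 left out), and that of LDHA to between -0.43 (EV replicate 2 left out) and -0.12 (EV replicate 1 left out). The ratio of LDHA to LDHB within a library was 0.432 and 0.497 in sgKAT6A and 0.440 and 0.407 in EV, with overlap.

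**Figure D2:**
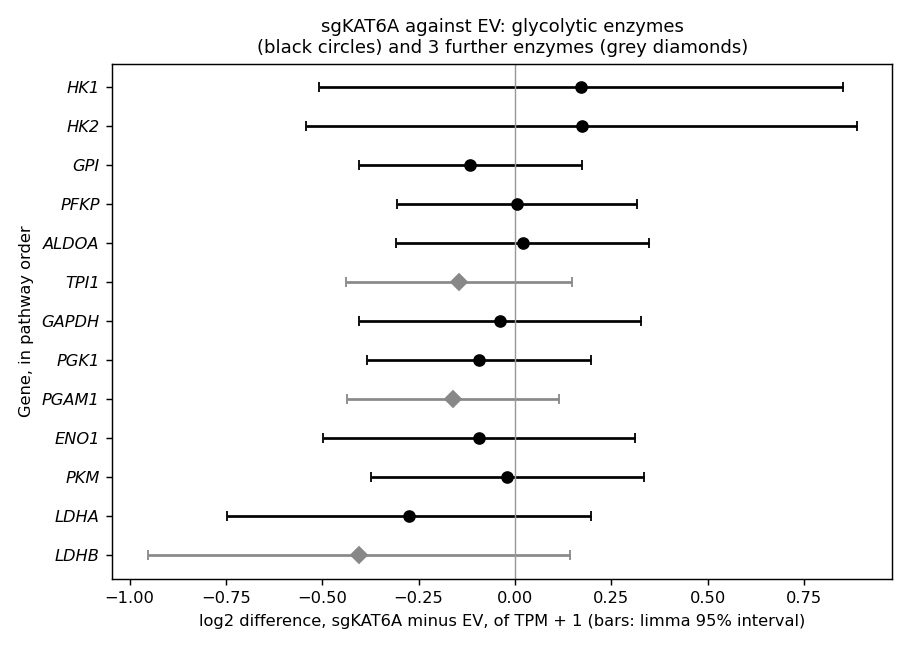
Log2 difference of TPM + 1, sgKAT6A minus EV, with limma 95% intervals, in pathway order; black circles are the 10 glycolytic enzymes and grey diamonds the further enzymes TPI1, PGAM1 and LDHB. Every interval includes 0, the widest being that of HK2 (-0.54 to 0.89), and the difference farthest below 0 among the 10 is that of LDHA (-0.27).

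The intervals show how precisely each fold was estimated from the spread among these libraries, which may be technical. They are intervals of single genes, not adjusted for the number of genes tested. For GPI the 95% interval of the fold ran from 0.755 to 1.13 and for PGK1 from 0.767 to 1.15. PFKP gave 0.809 to 1.25 and ALDOA 0.808 to 1.27. The interval of PKM was 0.771 to 1.26, that of GAPDH 0.756 to 1.25, and that of ENO1 0.709 to 1.24. The hexokinases were the least certain, at 0.703 to 1.80 for HK1 and 0.687 to 1.85 for HK2. Both directions thus stayed within each interval, and a p above the threshold does not show that levels were equal.

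Counted by separation, 3 of the 10 (GPI, PGK1 and LDHA) lay lower in both sgKAT6A libraries than in either EV library, and 0 lay higher in both. Over all genes tested, 23.2% were separated downwards and 14.4% upwards, so the count lies near this background. The count also depended on how libraries were scaled. With protein-coding genes only, rescaled to an equal total, GPI alone was separated downwards and PFKP alone upwards, beside 16.2% and 19.5% of 11019 genes. With median-of-ratios scaling, GPI alone remained below, at 151 and 156.24 TPM with sgKAT6A and 170 and 156.27 TPM with EV. The share of all genes separated under median-of-ratios scaling was not counted, so that count has no background beside it. TPI1, PGAM1 and LDHB were below without overlap under each of these scalings. TPI1 was nearly tied with median-of-ratios scaling, at 476.78 TPM in sgKAT6A replicate 2 and 476.82 TPM in EV replicate 2.

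Because all values of a library share 1 total, each enzyme was also expressed as a share of the 10-gene sum. GAPDH, ENO1 and ALDOA made up 79.8% and 77.9% of that sum in sgKAT6A and 79.3% and 77.3% in EV. HK1, HK2 and PFKP made up 1.60% and 2.10% in sgKAT6A and 1.52% and 1.82% in EV. LDHA took 3.96% and 3.64% in sgKAT6A and 4.77% and 4.12% in EV, which did not overlap. GPI took 2.02% and 2.23% in sgKAT6A and 2.18% and 2.27% in EV, and PGK1 3.39% and 3.87% in sgKAT6A and 3.67% and 3.80% in EV, both with overlap.

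The other enzymes of these steps were represented by 12 tested genes of 18, and none passed. Of them 2 were above and 4 below without overlap, PGAM2 and ALDOC on the upper side and LDHB, PGAM1, TPI1 and BPGM on the lower, beside 14.4% above and 23.2% below over all genes tested. PGAM2, the muscle-type mutase, was at 17.8 and 18.4 TPM with sgKAT6A and 9.20 and 12.7 TPM with EV (log2 difference 0.69 ± 0.19 (SE), limma adjusted p = 0.784). The list had a median log2 difference of 0.096 beside -0.02 for all genes tested. With only genes of at least 5 TPM in the mean that median was -0.14, and it was 0.0030 without sgKAT6A replicate 2.

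Transport of glucose and lactate was described by 8 tested genes, none of which passed (median log2 difference 0.19, and -0.03 without sgKAT6A replicate 2). SLC2A1, the basal glucose transporter, was at 19.6 and 18.8 TPM with sgKAT6A and 20.5 and 19.0 TPM with EV. SLC2A3, the high-affinity glucose transporter, was at 10.5 and 36.6 TPM with sgKAT6A and 9.04 and 13.6 TPM with EV. SLC16A1, a lactate carrier, was at 22.8 and 12.5 TPM with sgKAT6A and 33.3 and 25.8 TPM with EV, without overlap (log2 difference -0.76 ± 0.33 (SE), limma adjusted p = 0.784). The SLC16A1 difference was -1.17 without sgKAT6A replicate 1 and -0.35 without sgKAT6A replicate 2. SLC16A3, the lactate exporter of glycolytic cells, was at 150 and 237 TPM with sgKAT6A and 114 and 174 TPM with EV. The ratio of SLC16A3 to SLC16A1 was therefore 6.59 and 18.9 in sgKAT6A and 3.43 and 6.74 in EV, and that of SLC2A3 to SLC2A1 was 0.532 and 1.94 in sgKAT6A and 0.441 and 0.714 in EV. Both ratios were highest in sgKAT6A replicate 2, and the groups overlapped in both.

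**Figure D3:**
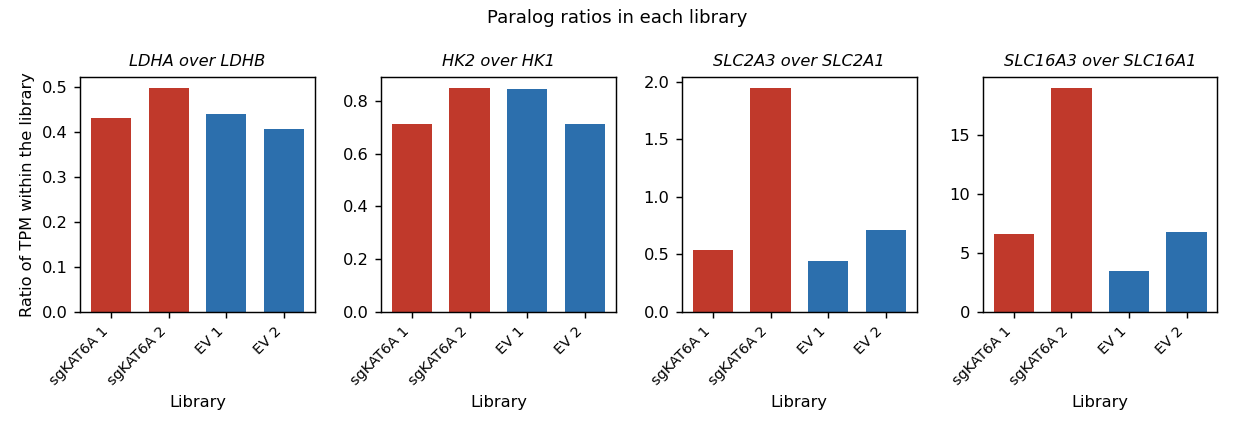
Ratio of TPM between paralogous genes within each library, sgKAT6A libraries in red and EV libraries in blue, 1 bar per library with bars starting at 0. LDHA over LDHB stays between 0.407 and 0.497 and HK2 over HK1 between 0.713 and 0.850, whereas SLC16A3 over SLC16A1 reaches 18.9 in sgKAT6A replicate 2 against 3.43 to 6.74 in the other libraries.

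Among regulators of flux, 8 of 11 genes were tested and none passed (median log2 difference 0.21, and 0.11 without EV replicate 1). PFKFB3, which makes the activator fructose 2,6-bisphosphate, was at 22.2 and 25.1 TPM with sgKAT6A and 16.1 and 22.9 TPM with EV. PFKFB4, of the same family, was at 4.81 and 16.1 TPM with sgKAT6A and 1.98 and 7.82 TPM with EV. PDK1, a kinase that shuts pyruvate dehydrogenase, was at 3.20 and 6.49 TPM with sgKAT6A and 3.55 and 3.99 TPM with EV. PDK3, of the same kinase family, was at 6.24 and 4.86 TPM with sgKAT6A and 3.93 and 4.41 TPM with EV, without overlap (limma adjusted p = 0.784). PDP2 was lower without overlap, at 5.23 and 3.94 TPM with sgKAT6A and 5.94 and 5.48 TPM with EV (limma adjusted p = 0.784). The list thus had 1 above and 1 below, beside 14.4% above and 23.2% below over all genes tested. With protein-coding rescaling it had 4 above and 0 below, beside 19.5% above and 16.2% below of all genes.

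Of the transcription factors known to act on glycolytic genes, 8 of 9 were tested and none passed (median log2 difference 0.07). HIF1A, the oxygen-regulated subunit of HIF-1, was at 13.8 and 18.5 TPM with sgKAT6A and 14.0 and 17.5 TPM with EV. ARNT, its partner subunit, was at 18.9 and 20.4 TPM with sgKAT6A and 14.3 and 17.6 TPM with EV, without overlap. MYC was at 107 and 55.7 TPM with sgKAT6A and 161 and 93.0 TPM with EV, with overlap and a log2 difference of -0.66 ± 0.44 (SE, limma adjusted p = 0.784). Leaving out 1 library, the MYC difference was -1.12 without sgKAT6A replicate 1, -0.19 without sgKAT6A replicate 2, -0.27 without EV replicate 1 and -1.05 without EV replicate 2. HIF-1 is known to be controlled mainly by degradation of the HIF1A protein, which RNA does not measure. The median of these factors was -0.03 without sgKAT6A replicate 2 and -0.04 without EV replicate 1.

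HIF-1 targets outside glycolysis were mostly highest in sgKAT6A replicate 2. Of 16 genes, 12 were tested and none passed, with a median log2 difference of 0.42. In sgKAT6A replicate 2, 11 of the 12 had their highest value of the 4 libraries, beside 31.4% of all genes tested and 3 of the 10 enzymes (HK1, HK2 and ALDOA). This comparison was chosen after the values were seen. DDIT4, a stress-induced inhibitor of mTORC1, was at 12.6 and 57.4 TPM with sgKAT6A and 12.1 and 13.3 TPM with EV. MXI1, a MYC antagonist, was at 21.7 and 33.0 TPM with sgKAT6A and 18.9 and 22.1 TPM with EV. Relative to each gene's EV mean, the median of the list was -0.10 in sgKAT6A replicate 1 and 1.05 in sgKAT6A replicate 2, while the median of the 10 enzymes was -0.06 and -0.03 in those libraries. The HIF-1 list was also higher in replicate 2 of EV. Its median log2 gap, replicate 2 minus replicate 1, was 0.29 in EV and 1.30 in sgKAT6A. Over all genes tested that gap was 0.065 in EV and -0.03 in sgKAT6A. Without sgKAT6A replicate 2 the median difference of the HIF-1 list was -0.10, so its sign rested on that library. The monocytic markers CD14 and ITGAM were also highest there, at 54.3 and 52.1 TPM, and their part in the result was not tested.

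**Figure D4:**
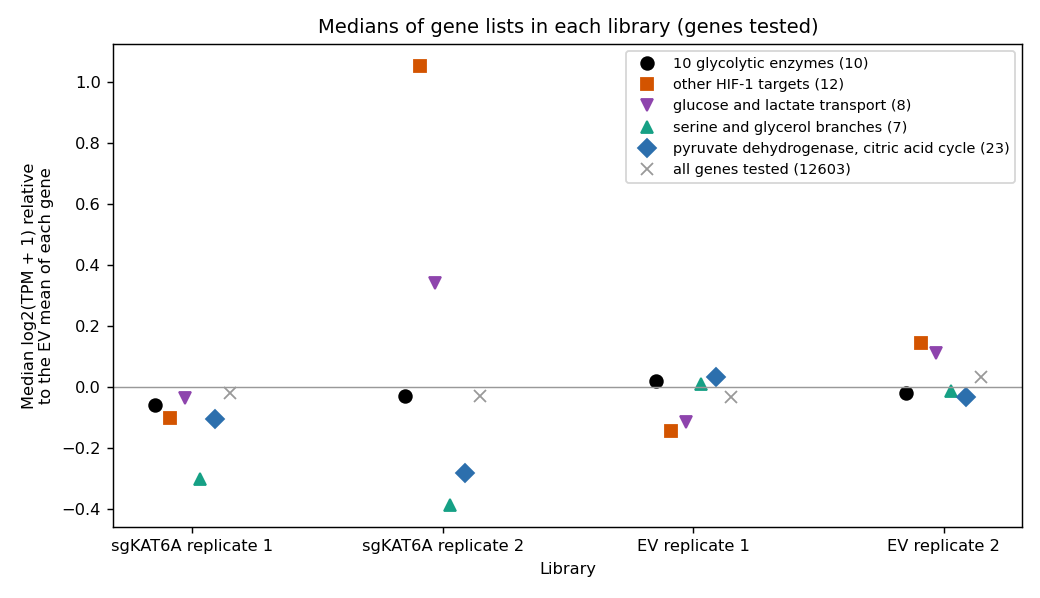
Median log2(TPM + 1) of the tested genes of each list, relative to each gene's EV mean, in the sgKAT6A libraries and then the EV libraries, with the number of genes in parentheses. The 10 glycolytic enzymes lie between -0.06 and 0.02 in all 4 libraries, the other HIF-1 targets reach 1.05 in sgKAT6A replicate 2, and the serine and glycerol branches lie at -0.30 and -0.38 in the sgKAT6A libraries.

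Genes that branch from glycolysis towards serine and glycerol phosphate were mostly lower in sgKAT6A, though none passed. Of 8 genes 7 were tested, 6 of them below without overlap and 0 above, beside 23.2% below and 14.4% above over all genes tested, with a median log2 difference of -0.33. With protein-coding genes only, rescaled, 5 of 7 were below, beside 16.2% of all genes. PHGDH, which diverts 3-phosphoglycerate into serine, was at 28.1 and 25.2 TPM with sgKAT6A and 42.8 and 36.4 TPM with EV (log2 difference -0.55 ± 0.15 (SE), unadjusted p = 0.0202 and adjusted p = 0.784 by limma). SHMT2, the mitochondrial enzyme that turns serine into glycine, was at 86.7 and 95.9 TPM with sgKAT6A and 116 and 114 TPM with EV (log2 difference -0.33 ± 0.12 (SE), limma adjusted p = 0.784). PSPH, the last step of serine synthesis, was at 28.1 and 24.6 TPM with sgKAT6A and 32.3 and 32.6 TPM with EV.

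Pyruvate dehydrogenase and the citric acid cycle, which take up pyruvate in mitochondria, gave 23 tested genes, 13 of them below without overlap and 0 above, beside 23.2% and 14.4% of all genes tested, and none passed. Their median log2 difference was -0.19, and -0.28 without sgKAT6A replicate 1 and -0.10 without sgKAT6A replicate 2. After the protein-coding rescaling 7 of the 23 were below, beside the 16.2% of all genes. FH, the cycle's fumarase, was at 45.9 and 35.6 TPM with sgKAT6A and 56.2 and 50.7 TPM with EV. SUCLA2, a subunit of succinyl-CoA ligase, was at 31.2 and 29.9 TPM with sgKAT6A and 36.1 and 35.1 TPM with EV.

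The pentose phosphate pathway, which draws glucose 6-phosphate away for NADPH and ribose, had 7 genes tested, 2 of them below (RPIA and RPE) and 0 above, none of which passed (median log2 difference -0.04, and 0.026 with protein-coding genes only). Over all genes tested 23.2% were below and 14.4% above. With protein-coding rescaling the list had 0 below and 1 above, beside 16.2% below and 19.5% above of all genes. With median-of-ratios scaling it also had 0 below and 1 above, and the share of all genes was not counted there. The median of the list was -0.09 without EV replicate 1 and 0.073 without EV replicate 2. TKT, its transketolase, was at 448 and 478 TPM with sgKAT6A and 377 and 455 TPM with EV. In gluconeogenesis, the reverse route, 4 of 6 genes were tested, and none passed. Of these, 1 was above (FBP1) and 2 were below (PC and G6PC3), beside 14.4% above and 23.2% below over all genes tested. FBP1, the bisphosphatase that opposes phosphofructokinase, was at 12.0 and 19.8 TPM with sgKAT6A and 8.55 and 10.4 TPM with EV (log2 difference 0.65 ± 0.28 (SE), limma adjusted p = 0.784). The FBP1 difference was 0.99 without sgKAT6A replicate 1 and 0.31 without sgKAT6A replicate 2.

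The 10 enzymes did not share a single profile over the 4 libraries. Centred on its own mean, each enzyme lay at a root mean square distance of 0.040 to 0.231 on the log2 scale from the mean profile of the 10, with PFKP nearest and HK2 farthest. Among 7044 other genes averaging 10 TPM or more, the 5 nearest to that mean profile over the 4 libraries were RPS2, TAX1BP1, PEX2, APOPT1 and MTX1, at distances of 0.0058 to 0.0102. RPS2, a protein of the small ribosomal subunit, was at 5931 and 6180 TPM with sgKAT6A and 6153 and 6277 TPM with EV. The mean profile was nearly flat, so likeness to it describes genes that varied little.

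Copies of these genes elsewhere in the genome limit the values. RefSeq lists 85 pseudogene symbols built on the names of the 10 genes, 65 of them for GAPDH, and the table used here has a row for none of them. How reads from such copies were assigned is not stated, so the levels of GAPDH in particular are uncertain to that extent.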

How the data were processed

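Column-purified RNA of MOLM-13 cells gave 2 sgKAT6A and 2 EV libraries, built by a company, per the labels' protocols. The deposited values are TPM for each gene symbol in a single table; the submitters' processing notes name Salmon and hg38. Neither the Salmon version nor the annotation nor the step from transcripts to genes is given in the sources used here. Libraries were grouped by title. Values were analysed as log2(TPM + 1), so fold changes of low genes are understated. The 12603 genes whose mean reached 1 TPM were tested in limma 3.58.1 (R 4.3.3) with a mean-variance trend, two-sided and Benjamini-Hochberg adjusted over all genes tested, at a threshold of 0.05. The fit was tested on simulated data, at the spread of the real values and at a smaller spread. Recovery of simulated differences was required only at the smaller spread. That check therefore does not show how many differences the fit would find in the real values. The 10 genes and the related lists were chosen with earlier results of these data known. Named beside the 10 were KAT6A, up to 4 genes of each list with the smallest unadjusted p, and TPI1, PGAM1, LDHB, SLC2A1, SLC2A3, SLC16A1, SLC16A3, HIF1A, MYC and PDK1, and the 5 other genes nearest to the enzymes' mean profile. HK3, PFKL and BPGM were added after their values were seen. Gene classes, locations and promoters came from RefSeq on GRCh38.p14. Alternatives varied the pseudocount (0.1 or 5), the filter (none or a mean of 5 TPM), the scaling, the variance model, the libraries and the replicate block. Figures were drawn with matplotlib 3.10.9.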

Additional observations from a re-analysis of the deposited data

How the results depend on the processing

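No enzyme passed the threshold under any of the 14 alternatives, and 125 of 140 alternative log2 differences of the 10 kept their sign. GPI, PGK1 and LDHA were negative under all 14. The filter, the variance model and the replicate block leave a log2 difference unchanged, so signs could not turn there. The groups of GPI, PGK1 and LDHA did not overlap in the deposited values. Leaving out a library or changing the pseudocount therefore could not turn the sign of these genes either, and only the changes of scaling could. The sign turned for GAPDH with quantile normalization (0.056) and with protein-coding genes only (0.023), for PKM with median-of-ratios scaling (0.011), quantile normalization (0.042) and protein-coding genes only (0.041), and for SLC2A1 with protein-coding genes only (0.025). The cause was not tested. Leaving out each library in turn gave -0.081 to 0.42 for HK1, -0.13 to 0.47 for HK2, -0.033 to 0.045 for PFKP, -0.080 to 0.12 for ALDOA, -0.15 to 0.071 for GAPDH, -0.23 to 0.044 for ENO1, -0.14 to 0.097 for PKM and -0.43 to -0.12 for LDHA. It gave -0.011 to 2.10 for DDIT4, -0.17 to 0.23 for HIF1A, -0.0081 to 0.24 for MLXIP, -0.18 to 0.65 for PDK1, -0.094 to 0.51 for PGD, -0.085 to 0.016 for SLC2A1 and -0.078 to 1.64 for SLC2A3. The median of the 10 ran from -0.07 to -0.03 and the ratio of their sums from 0.926 to 1.01 in the same way. Genes with an unadjusted p under 0.05 numbered 459, against 933 with no filter, 1212 without sgKAT6A replicate 1, 304 without sgKAT6A replicate 2, 179 without EV replicate 1 and 241 without EV replicate 2. With the replicate number as a block, limma called 15 genes, none of the 10, and 2417 had an unadjusted p under 0.05. Of the 10, only LDHA was among those 2417 (unadjusted p = 0.0227 and adjusted p = 0.206 by limma with the block). Deviations of libraries that share a number correlated at r = 0.45 across genes, but the labels do not pair them. Read depth is unknown, so the counting error of low values could not be given.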
